A study of Mus musculus with 8 samples.

Results

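A group of 8 genes of the membrane-spanning 4-domains subfamily A (MS4A) was followed across the immune cells of the mouse brain: *Ms4a4a, Ms4a4b, Ms4a4c, Ms4a6b, Ms4a6c, Ms4a6d, Ms4a7*, and *Ms4a3*. They were chosen by symbol, with earlier results of these data known, and all 8 were found among the 32227 genes in the count tables. The cells came from 8 male C57Bl/6J mice aged 5 to 6 months by the labels, where the study's text gives a younger range. Each mouse received either LPS intraperitoneally at 15000000 EU/kg or sterile saline, and the brains were taken 24 hours later. The brains were not perfused, so blood cells in the vessels were included, and cells carrying the leukocyte antigen CD45 were selected with magnetic beads before capture with PIPseq, a droplet method that needs no microfluidics. During enzymatic dissociation the cells were exposed to inhibitors of transcription and translation (actinomycin D, triptolide, and anisomycin) or to the vehicle DMSO. Each combination of the in vivo and ex vivo treatments had 2 libraries, with 1 library per mouse, so that 4 saline libraries stood against 4 LPS libraries.

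MS4A proteins cross the membrane 4 times and sit beside receptors, whose signaling and trafficking they adjust. The best known members are *Ms4a1*, which encodes the B-cell antigen CD20, and *Ms4a2*, which encodes the β chain of the high-affinity IgE receptor. In the brain the family is known chiefly for variants near the human genes *MS4A4A* and *MS4A6A* that are associated with the risk of Alzheimer's disease and with the level of soluble TREM2, a receptor of microglia.

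Cells within the quality limits (from 800 to under 45000 UMIs, from 250 to under 6500 genes, and under 5% mitochondrial UMIs) numbered 119053, from 12039 to 17364 per library, and 118942 remained after cells with over 5% hemoglobin UMIs were left out. A UMI, or unique molecular identifier, counts 1 captured RNA molecule. Cells were assigned by gates on marker genes, none of which is among the 8 members, which gave 84882 microglia, 3097 macrophages, 3642 monocytes, 1701 neutrophils, 191 dendritic cells, 866 T-cells, and 410 NK cells. The libraries held 90352359 to 141182123 UMIs, and 125 of 118918 distinct barcodes occurred in more than 1 library. The markers of most gates were highest in their own class, which the gating on them favors, but only 3 of the 10 monocyte markers in saline and 4 of 10 in LPS were. For each class 4 check markers were kept out of the gate. In saline and LPS, those highest in their own class were 4 and 2 in microglia, 4 and 3 in macrophages, and 2 and 1 in monocytes. They were 4 and 3 in neutrophils, 3 and 2 in dendritic cells, 3 and 3 in T-cells, and 4 and 4 in NK cells. The leading genes of the monocyte class differed between the treatments (*Fn1, Saa3, Ccr2*, and *Lyz2* in saline, *Arg1, Ccl6, F10*, and *Smpdl3a* in LPS). The share of cells left without a class was 6.24% to 11.3% in saline and 22.8% to 28.6% in LPS libraries, and the change of each class therefore compares the cells that passed its gate in each treatment. Cells at the limit of a gate, where 1 marker decided, made up 1.40% of saline and 26.8% of LPS microglia, 16.1% and 59.9% of macrophages, 24.4% and 22.7% of monocytes, and 51.1% and 80.4% of dendritic cells.

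Of the 8 members, all but *Ms4a6d* (7 of 8) had an entry among the RefSeq promoter windows (GRCm38.p6, the 250 bases before the annotated start of transcription, on the strand of the gene), and all 7 lie on chromosome 19. Windows are printed for the 4 of these genes whose level in microglia rose and for *Ms4a7*, which fell in macrophages. *Ms4a7* has another window, chr19:11336147-11336396, that is not printed. Capitals mark matches on either strand to the κB letters (GGGA, then 4 bases of any kind, then CC), and *Ms4a4a* has 2 such matches that overlap each other.
Ms4a4a, chr19:11375238-11375487, plus strand: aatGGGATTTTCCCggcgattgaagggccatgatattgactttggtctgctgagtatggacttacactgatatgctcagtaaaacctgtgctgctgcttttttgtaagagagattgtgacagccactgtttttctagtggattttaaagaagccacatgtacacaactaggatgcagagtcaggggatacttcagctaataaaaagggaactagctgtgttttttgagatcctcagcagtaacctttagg
Ms4a6c, chr19:11469118-11469367, plus strand: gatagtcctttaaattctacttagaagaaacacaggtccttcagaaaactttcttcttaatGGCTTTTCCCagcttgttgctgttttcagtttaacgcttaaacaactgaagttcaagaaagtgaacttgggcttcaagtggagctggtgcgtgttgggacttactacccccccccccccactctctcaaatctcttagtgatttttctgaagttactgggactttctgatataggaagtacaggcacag
Ms4a6b, chr19:11518309-11518558, plus strand: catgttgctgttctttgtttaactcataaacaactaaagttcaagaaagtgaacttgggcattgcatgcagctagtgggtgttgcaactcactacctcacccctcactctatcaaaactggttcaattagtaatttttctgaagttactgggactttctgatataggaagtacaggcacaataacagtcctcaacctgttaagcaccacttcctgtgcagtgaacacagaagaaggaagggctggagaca
Ms4a4c, chr19:11407411-11407660, plus strand: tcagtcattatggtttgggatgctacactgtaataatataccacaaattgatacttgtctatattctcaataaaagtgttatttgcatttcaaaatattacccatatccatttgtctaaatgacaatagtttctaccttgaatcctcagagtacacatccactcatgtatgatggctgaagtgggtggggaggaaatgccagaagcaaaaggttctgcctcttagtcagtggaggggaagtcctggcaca
Ms4a7, chr19:11334696-11334945, minus strand: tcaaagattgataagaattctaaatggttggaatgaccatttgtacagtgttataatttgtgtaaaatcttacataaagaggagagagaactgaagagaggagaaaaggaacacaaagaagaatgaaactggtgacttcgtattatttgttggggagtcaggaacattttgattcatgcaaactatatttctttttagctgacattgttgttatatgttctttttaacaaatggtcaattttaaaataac

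The same κB letters occurred in 17.6% of 32851 promoter windows of this length. The interferon-stimulated response core (GAAA, 2 bases of any kind, GAAA) was in 2.98% of all windows, the STAT letters TTCNNNGAA in 7.02%, and the PU.1 letters GAGGAAGT in 2.44%, and none of these was found in a member's window. A match of letters is a description and not evidence of binding. Some members also resemble each other in their transcripts: *Ms4a4b* and *Ms4a4c* share a run of 127 identical bases, *Ms4a6b* and *Ms4a6c* 96 bases, and *Ms4a6b* and *Ms4a6d* 81 bases, so reads from these stretches could have been split between the genes.

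In saline mice the members divided the immune cells between them (levels are in CPM, the UMIs of a gene scaled by the total of its class, as mean ± SD over 4 libraries). *Ms4a7*, used as a marker of macrophages at the borders of the brain, stood at 933 ± 134 CPM in macrophages and at 8.86 ± 2.49 CPM in microglia. The next class below the macrophages, the B-cells, held 50.1 ± 21.6 CPM, cells left without a class held 155 ± 25.3 CPM, and neither range overlapped that of macrophages. *Ms4a4b*, which encodes a T-cell protein that associates with the costimulatory receptor GITR, was at 1651 ± 276 CPM in NK cells and 1290.1 ± 137 CPM in T-cells, whose ranges overlapped, and at 58.0 ± 24.5 CPM or less in the other tested classes, B-cells, and endothelial cells. Cells left without a class held 71.0 ± 19.5 CPM.

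The *Ms4a6* genes and *Ms4a4c* were spread over the myeloid classes, and *Ms4a6b* and *Ms4a4c* stood high in lymphocytes as well. *Ms4a6c* was highest in monocytes, at 1183 ± 175 CPM, followed by macrophages at 738 ± 76.0 CPM and dendritic cells at 368 ± 74.6 CPM, 3 classes that did not overlap, while microglia had 70.1 ± 6.74 CPM. *Ms4a6d* was at 226 ± 16.8 CPM in macrophages, 128 ± 73.7 CPM in monocytes, and 106 ± 8.90 CPM in microglia, with overlap between the first 2 and between the last 2. *Ms4a6b* did not separate T-cells (431 ± 27.1 CPM), macrophages (411 ± 72.9 CPM), and monocytes (370 ± 122 CPM) from each other, and microglia lay below all of these at 91.5 ± 4.04 CPM. *Ms4a4c* was highest in monocytes at 463 ± 108 CPM, above B-cells at 165 ± 54.9 CPM, and was 6.83 ± 0.946 CPM in microglia.

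For the last 2 members few UMIs were found in most classes. *Ms4a4a*, whose protein is found at the surface of macrophages, gave 4.06 to 19.3 CPM in macrophages and 28 UMIs in all 46175 saline microglia together. *Ms4a3*, a gene of granulocyte and monocyte progenitors, gave 47.0 ± 50.1 CPM in neutrophils and 767 to 1197 CPM in the 3 saline libraries with at least 10 cells rich in transcripts of azurophil granules, the enzyme stores of immature granulocytes, against 38.1 to 140 CPM in LPS libraries. The genes that set these cells apart were lower in LPS as well, with *Elane* at 9894 CPM in saline and 349 CPM in LPS, *Mpo* at 5919 and 287 CPM, and *Prtn3* at 5716 and 535 CPM, and *Rrm2, Birc5*, and *Lyz2* joined the leading genes in LPS, so the treatments do not compare like cells here. *Ms4a3* was among the leading genes that prompted these cells to be set apart, so its level there is a description.

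**Figure D1:**
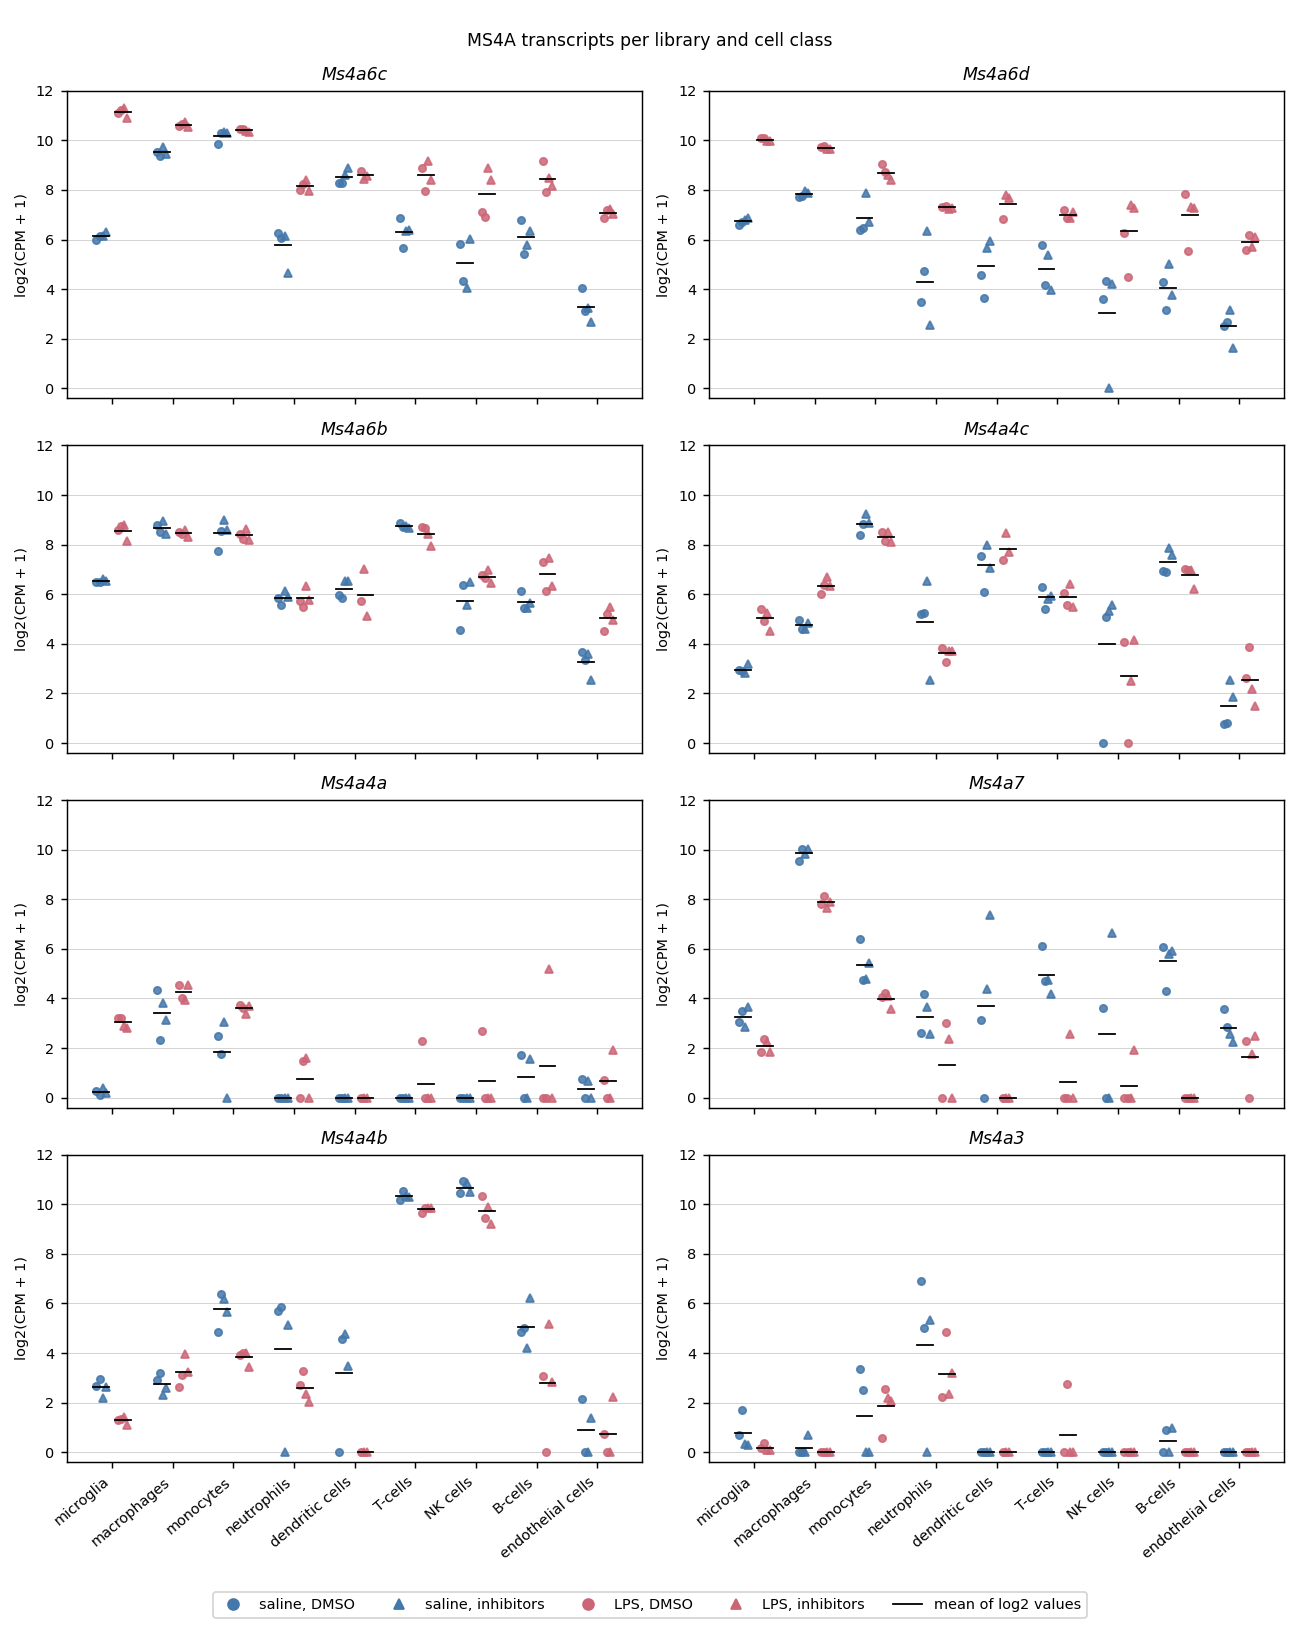
Level of each MS4A member, as log2(CPM + 1), in the 7 tested classes and in B-cells and endothelial cells, with 1 point per library (saline blue, LPS red, DMSO circles, inhibitors triangles) and the mean of the log2 values as a line. *Ms4a6c* in microglia moved from 62.4 to 78.8 CPM in saline libraries to between 1921 and 2562 CPM in LPS libraries, and *Ms4a7* in macrophages from 755 to 1046 CPM down to between 202 and 281 CPM.

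Microglia, the resident macrophages of the brain, showed the largest LPS rises of the family among the classes tested. Their own gate markers were lower after LPS, 10 of 10 by the mean, with a sum of 35799 to 37496 CPM in saline and 6869 to 8130 CPM in LPS libraries (*P2ry12* went from 4879 to 199 CPM). *Ms4a6c* was at 62.4, 69.5, 69.8, and 78.8 CPM in the saline libraries and at 2204, 2383, 2562, and 1921 CPM in the LPS libraries (DMSO replicates 1 and 2, then inhibitor replicates 1 and 2, here and below). *Ms4a6d* was at 95.6, 103, 110, and 117 CPM in saline and at 1084, 1093, 996, and 1018 CPM in LPS. All LPS libraries were high and all saline libraries low, and the groups did not overlap for either gene.

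The fitted log2 fold changes of LPS against saline were 5.75 ± 0.18 (SE) for *Ms4a6c* (adjusted p = 5.2e-10) and 4.05 ± 0.16 for *Ms4a6d* (adjusted p = 1.8e-09), which gave them rank 63 and rank 170 among 20032 genes tested. *Ms4a6b* rose by 2.81 ± 0.13, from 88.1 to 97.2 CPM in saline libraries to 281 to 438 CPM in LPS libraries. *Ms4a4c* rose by 2.99 ± 0.18, from 6.02 to 8.20 CPM to 22.2 to 41.6 CPM. Monocytes held 318 ± 48.1 CPM of *Ms4a4c* in LPS libraries, and the part of monocyte RNA in this microglial rise was not tested. *Ms4a4a* rose by 5.90 ± 0.25, from 0.0785 to 0.308 CPM to 6.10 to 8.33 CPM, a change that starts from few UMIs. The groups of libraries did not overlap for any of these genes, and all 5 were called in each of 25 alternative settings.

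The other 3 members were lower in LPS microglia, at low levels. *Ms4a4b* fell by 1.10 on the log2 scale (SE 0.22, adjusted p = 0.00085), *Ms4a7* fell by 0.69 (SE 0.25, adjusted p = 0.026), and *Ms4a3* fell by 1.93 (SE 0.79, adjusted p = 0.048). Markers of the classes where *Ms4a4b* and *Ms4a7* stand highest were lower in the same microglia: the T-cell gate markers summed to 21.8 to 35.3 CPM in saline and 2.83 to 4.29 CPM in LPS, and the macrophage gate markers to 256 to 369 and 127 to 230.2 CPM, with 10 of 10 lower by the mean in each list, but 2 of the 4 macrophage check markers were not. Their part in these falls was not tested. The calls of *Ms4a7* and *Ms4a3* were less secure. Across alternatives, *Ms4a7* had an adjusted p under 0.05 in 16 of 25 and *Ms4a3* in 14 of 24. *Ms4a3* fell by 0.70 (adjusted p = 0.28) without saline DMSO replicate 2, which held 58 of its 99 saline UMIs. *Ms4a7* fell by 0.42 (adjusted p = 0.14) without saline inhibitors replicate 2. All 8 members were thus called in microglia, 5 higher and 3 lower, where 30.3% of all tested genes were called higher and 35.2% lower. The median log2 fold change was 2.90 over the members and -0.18 over all genes. The members were chosen with earlier results of these data known, so this median does not stand for the family. The 10 other MS4A family genes tested in microglia had a median of -0.43.

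The scaling of the libraries bears on these sizes. TMM factors, which align the libraries on genes of moderate change, put microglial fold changes 0.76 higher on the log2 scale than library totals did, and the median of all genes was -0.94 with library totals alone. With library totals *Ms4a6c* rose by 5.01, *Ms4a6d* by 3.30, and *Ms4a6b* by 2.06, and all 8 members kept their call and direction. Over all microglial genes the split of calls was 6076 higher and 7048 lower with TMM and 2828 higher and 13519 lower with library totals. The corresponding splits were 1872 and 1896 against 1106 and 3094 in macrophages, 1913 and 1876 against 1446 and 2327 in monocytes, 707 and 748 against 499 and 910 in neutrophils, and 393 and 351 against 289 and 413 in T-cells.

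The changes of *Ms4a6c* and *Ms4a6d* were seen in most microglial cells. When each cell was thinned to 1000 UMIs, because cells that passed the microglia gate held more UMIs in LPS (median 5037 to 5834 against 2240 to 3220, where macrophages had 1968 to 2440.5 against 1771 to 2518), *Ms4a6c* had a UMI in 5.41% to 6.22% of saline and 81.5% to 89.2% of LPS microglia. Without thinning the shares were 12.6% to 17.0% and 98.8% to 99.1%. Thinning left out 1675 saline and 275 LPS microglia with fewer UMIs. *Ms4a6d* had a UMI in 8.84% to 10.4% of thinned saline and 61.1% to 65.1% of thinned LPS microglia (up to 26.5% and 95.4% to 96.5% unthinned), and *Ms4a6b* in 8.32% to 8.69% and 23.9% to 34.6% (17.6% to 23.9% and 70.6% to 80.2% unthinned). *Ms4a4c* had a UMI in 1.96% to 4.07% and *Ms4a4a* in at most 0.916% of thinned LPS microglia. Endothelial cells, which should lack these genes, gave *Ms4a6c* in 8.84% to 14.3% and *Ms4a6d* in 4.08% to 8.55% of thinned LPS cells, against at most 0.897% and 0.794% in saline (unthinned, 25.1% to 38.3% and 15.0% to 23.6% in LPS).

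**Figure D2:**
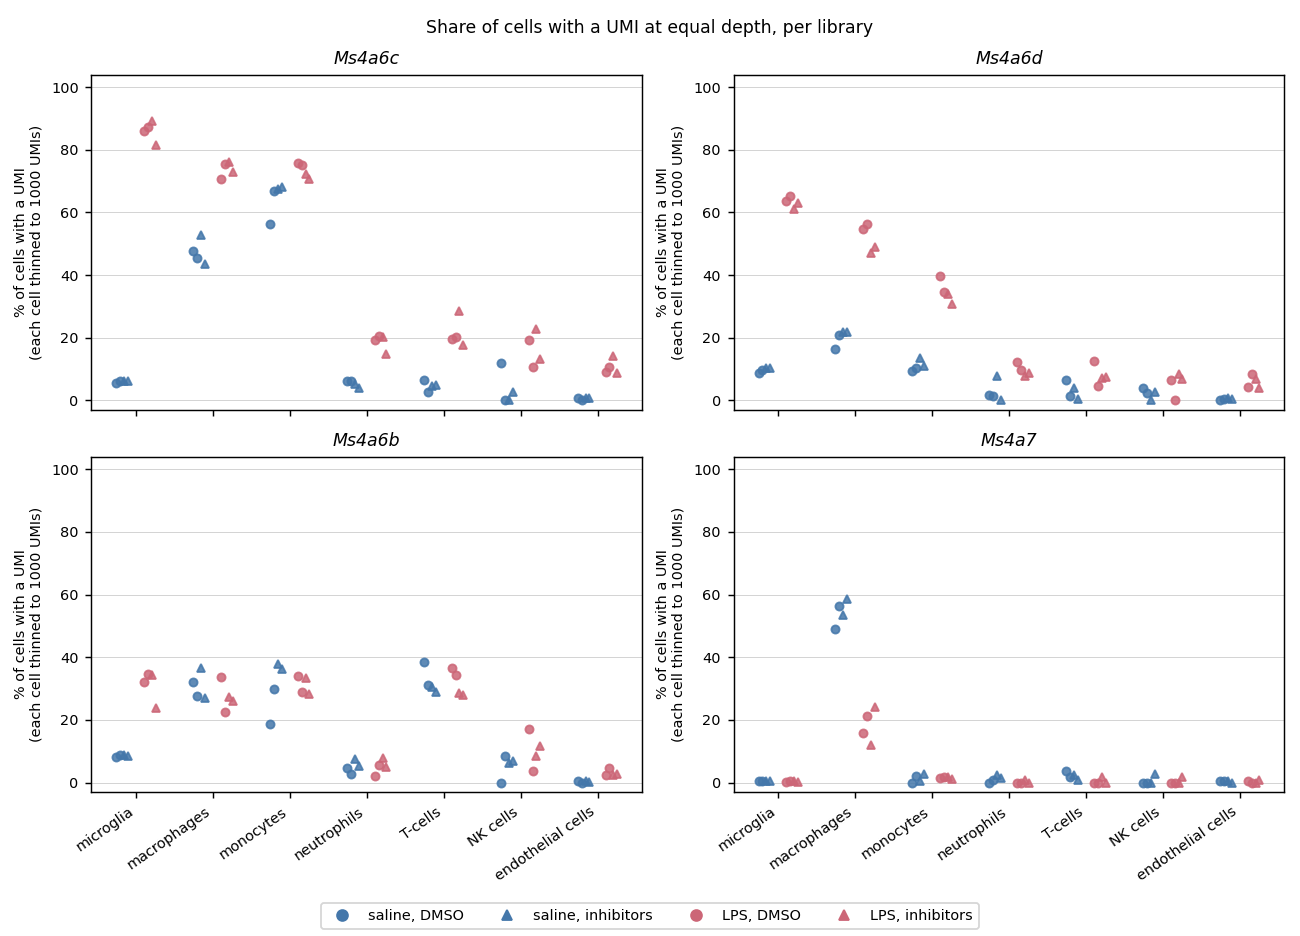
Share of cells with at least 1 UMI of a member after thinning each cell to 1000 UMIs (percent), for 4 members by class, with 1 point per library (saline blue, LPS red, DMSO circles, inhibitors triangles). The share for *Ms4a6c* in microglia was 5.41% to 6.22% in saline and 81.5% to 89.2% in LPS, and for *Ms4a7* in macrophages 49.2% to 58.7% in saline and 12.1% to 24.0% in LPS.

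Macrophages, gated on *Mrc1, Cd163*, and *Lyve1* among other markers, showed smaller rises of *Ms4a6c, Ms4a6d*, and *Ms4a4c* and a fall of *Ms4a7*. *Ms4a7* was at 755, 1027, 904, and 1046 CPM in the saline libraries and at 221, 281, 202, and 237 CPM in the LPS libraries. The groups did not overlap, and *Ms4a7* fell by 1.65 on the log2 scale (SE 0.18, adjusted p = 2.9e-06), with a fall of 1.47 to 2.01 over all alternatives. It had a UMI in 49.2% to 58.7% of thinned saline and 12.1% to 24.0% of thinned LPS macrophages (73.6% to 77.2% and 27.3% to 39.5% unthinned). The markers of the gate were lower too: 9 of 10 had a lower mean in LPS, among them *Lyve1* (700 to 57.1 CPM), *Stab1* (3031 to 327 CPM), and *Mrc1* (4364 to 1464 CPM), and their sum went from 15758 to 17179 CPM in saline to 5053 to 6503 CPM in LPS libraries. All 4 check markers outside the gate had a lower mean as well, so a fall was not particular to *Ms4a7*, and the part that the gate had in it was not tested. With the stricter gate, which asks for 4 markers, *Ms4a7* fell by 1.71. In B-cells *Ms4a7* was at 18.6 to 67.1 CPM in saline and at 0 UMIs in every LPS library, so the groups did not overlap, but LPS B-cells numbered 141, and 0 of 141 cells allows a share with a UMI of up to 2.13% (counting error only), against 1.49% to 5.01% in saline. In T-cells it was at 17.0 to 67.6 CPM in saline and 0 to 4.98 CPM in LPS. Its ranges overlapped in neutrophils, NK cells, dendritic cells, and endothelial cells. A single saline B-cell held up to 17 UMIs of *Ms4a7* and a single saline T-cell up to 12. The part of macrophage RNA in the levels of B-cells and T-cells was not tested.

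In the same macrophages *Ms4a6d* was at 207, 218, 245, and 233 CPM in saline and at 848, 879, 811, and 803 CPM in LPS libraries, and rose by 2.22 ± 0.15. *Ms4a6c* was at 748, 670, 842, and 694 CPM in saline and at 1516, 1636, 1688, and 1509 CPM in LPS, and rose by 1.44 ± 0.14. *Ms4a4c* rose by 1.95 ± 0.18, from 23.0 to 29.8 CPM to 62.6 to 103 CPM. For none of these 3 genes did a saline library reach the lowest LPS library. *Ms4a4a* was at 4.06 to 19.3 CPM in saline and 14.4 to 22.6 CPM in LPS, ranges that overlap. Its log2 fold change was 0.99 ± 0.38 (adjusted p = 0.044), with an adjusted p under 0.05 in 10 of 20 alternatives. With library totals it was 0.63 (adjusted p = 0.19). *Ms4a6b* had a log2 fold change of 0.11 ± 0.15 (adjusted p = 0.55) that turned to -0.25 with library totals, neither of them called. Of the 6 members tested, 4 rose and 1 fell, against 24% of all genes higher and 24.3% lower, and the median was 1.22 over members and -0.03 over all genes. The 4 other family genes tested in macrophages had a median of -0.94.

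**Figure D3:**
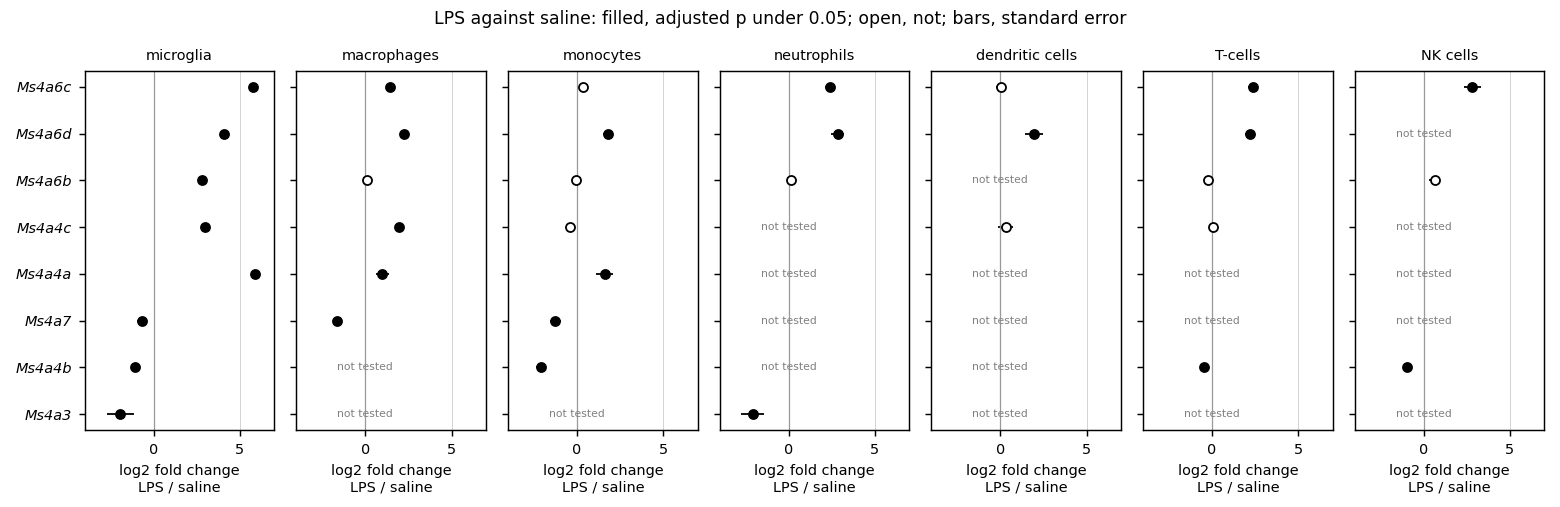
Fitted log2 fold change of LPS against saline for each member in each class, with bars of 1 SE, calls at an adjusted p under 0.05 filled, and other values open. In microglia 5 members lie between 2.81 and 5.90, whereas in macrophages the rises lie between 0.99 and 2.22 and *Ms4a7* lies at -1.65.

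In monocytes, the blood cells that are recruited in inflammation, *Ms4a6c* was not called. *Ms4a6c* was at 922, 1263, 1293, and 1255 CPM in saline and at 1408, 1409, 1334, and 1291 CPM in LPS libraries, and its log2 fold change was 0.34 ± 0.18 (adjusted p = 0.15). *Ms4a6d* was at 82.6, 87.5, 238, and 105 CPM in saline and at 524, 417, 385, and 341 CPM in LPS, without overlap, and rose by 1.78 ± 0.27. Its adjusted p was under 0.05 in all 25 alternatives, but the size of the rise moved from 1.13 to 2.69 between them. It was not called where an absolute log2 fold change over 2 was required. *Ms4a4c* was at 335 to 600 CPM in saline and 271 to 361 CPM in LPS (log2 fold change -0.42 ± 0.18, adjusted p = 0.077), and it was called lower in 5 of 25 alternatives, such as without saline DMSO replicate 1 (-0.52, adjusted p = 0.026).

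*Ms4a4a* rose by 1.61 ± 0.50 in monocytes (adjusted p = 0.019), from 3.57 ± 3.13 to 11.3 ± 1.27 CPM, on 7 UMIs in 537 saline and 146 UMIs in 3105 LPS cells. Its adjusted p was under 0.05 in 17 of 21 alternatives (range 0.0029 to 0.18) but not, for example, without saline DMSO replicate 2 (adjusted p = 0.058). *Ms4a4b* fell by 2.07 (SE 0.28), from 27.5 to 82.8 CPM to 9.83 to 15.2 CPM. In the same monocytes the 10 T-cell gate markers summed to 36.7 to 128 CPM in saline and 3.15 to 13.8 CPM in LPS, 9 of them with a lower mean, while the NK gate markers overlapped (4.59 to 16.6 and 6.06 to 11.96 CPM, 6 of 10 lower). The 4 T-cell check markers overlapped too, and the 4 NK check markers did not (14.7 to 49.7 and 4.06 to 7.97 CPM). The part of T-cell or NK-cell RNA in the fall of *Ms4a4b* was not tested. *Ms4a7* fell by 1.24 (SE 0.33, adjusted p = 0.0078), but when the gate made no allowance for free RNA its log2 fold change was 0.52. Of the 7 members tested, 2 rose and 2 fell, where 18.9% of all genes were called higher and 18.5% lower, and the median was -0.05 for the members and -0.02 for all genes.

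Neutrophils had low levels of the members that rose. *Ms4a6c* was at 76.8, 66.0, 69.5, and 24.2 CPM in saline and at 253, 299, 339, and 248 CPM in LPS libraries, and rose by 2.39 ± 0.27. *Ms4a6d* was at 10.2, 25.8, 81.0, and 4.85 CPM in saline and at 159, 161, 151, and 153 CPM in LPS, and rose by 2.84 ± 0.39. The groups did not overlap for either. From hemoglobin, free RNA was estimated to give 66.3 to 157 CPM of *Ms4a6c* and 33.5 to 58.0 CPM of *Ms4a6d* in LPS neutrophils, and both were still called after its subtraction (2.01 and 2.84). The LPS level of *Ms4a6c* averaged 285 CPM, and 197 CPM after the cells with the highest doublet scores were removed, when both genes were also called. The part of attached microglial material was not tested. *Ms4a3* fell by 2.07 (SE 0.67, adjusted p = 0.030), with overlapping groups of 0 to 118 and 3.75 to 28.0 CPM, by 1.26 (adjusted p = 0.23) without saline DMSO replicate 1, and DESeq2 did not call it (adjusted p = 0.20). Of the 10 neutrophil gate markers, 5 had a lower mean in LPS neutrophils, among them *Ltf* (11683 to 1098 CPM) and *Camp* (15671 to 5857 CPM), and 5 a higher one, among them *S100a8* (42403 to 71727 CPM), and their sums overlapped (122324 to 259048 and 170072 to 255896 CPM). Of 4 members tested, 2 were called higher and 1 lower, where 13.8% of all genes were called higher and 14.6% lower. With the replicate number as a block 5 members were called, because *Ms4a4b* (-2.82, adjusted p = 0.00099) and *Ms4a4c* (-1.45, adjusted p = 0.027) then passed the filter on low counts. Under the block 17.3% of all genes were called higher and 16.7% lower. The groups overlapped for both members (0 to 57.4 and 3.03 to 8.75 CPM of *Ms4a4b*, 4.85 to 92.6 and 8.75 to 13.1 CPM of *Ms4a4c*), and the T-cell gate markers in neutrophils went from 57.9 to 262 CPM to 10.5 to 22.2 CPM, 10 of 10 lower, whose part was not tested.

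Dendritic cells were few, with 7 cells in LPS DMSO replicate 2, which was left out, and 11 to 52 in the other libraries. The cells that passed the gate differed in their markers between the treatments: *Ccr7* was at 90.9 CPM in saline and 3757 CPM in LPS, *Cd209a* at 818 and 54.1 CPM, and *Xcr1* at 123 and 0 CPM. Their leading genes were *Mmp12, Cd209a*, and *Flt3* in saline and *Ccl17, Ccr7*, and *Ccl22* in LPS. Whether the gate took other cells or the cells themselves changed was not tested. Of the 3 members tested only *Ms4a6d* was called, in a class where 12.2% of all genes were called higher and 12% lower. *Ms4a6d* rose by 1.96 ± 0.53 (adjusted p = 0.016), from 11.3 to 60.9 CPM to 112 to 222 CPM, on 25 and 26 UMIs. It was not called without LPS inhibitors replicate 1 (adjusted p = 0.082) or replicate 2 (adjusted p = 0.075). *Ms4a6c* stood at 368 ± 74.6 CPM in saline and 385 ± 42.4 CPM in LPS (n = 3), with a log2 fold change of 0.02 ± 0.29 (adjusted p = 0.98).

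T-cells and NK cells carried *Ms4a4b* at a lower level after LPS. In NK cells it was at 1397, 1941, 1832, and 1434 CPM in saline and at 1275, 704, 936, and 584 CPM in LPS libraries, and fell by 0.96 on the log2 scale (SE 0.20, adjusted p = 0.0026). In T-cells it was at 1143, 1472, 1293, and 1253 CPM in saline and at 807, 928, 916, and 911 CPM in LPS. The groups did not overlap in either class. The fall of 0.46 in T-cells (SE 0.15, adjusted p = 0.035), however, had an adjusted p under 0.05 in only 11 of 25 alternatives. Its call was lost on leaving out any 1 of the 7 libraries other than saline DMSO replicate 1. Of the 10 T-cell gate markers 9 also had a lower mean in LPS T-cells, and their sum went from 5426 to 7310 CPM to 3206 to 4795 CPM, and 8 of 10 NK gate markers had a lower mean in LPS NK cells, such as *Klre1* (1176 to 252 CPM) and *Klra8* (1265 to 416 CPM), although *Gzma* was higher (16073 to 29535 CPM). Whether these falls have a part in that of *Ms4a4b* was not tested. After thinning, *Ms4a4b* had a UMI in 59.5% to 64.1% of saline and 40.6% to 44.6% of LPS T-cells (79.0% to 87.2% and 56.9% to 72.2% unthinned).

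In these lymphocytes the myeloid members *Ms4a6c* and *Ms4a6d* were also higher after LPS. *Ms4a6c* was at 50.3 to 116 CPM in saline and 246 to 567 CPM in LPS T-cells (log2 fold change 2.37 ± 0.25), and at 15.6 to 64.6 and 121 to 471 CPM in NK cells (2.83 ± 0.49). *Ms4a6d* rose by 2.20 ± 0.32 in T-cells, from 14.6 to 54.0 CPM to 114 to 146 CPM. Barcodes with 1 to 99 UMIs, which hold free RNA, contained *Ms4a6c* at 81.2 to 164 CPM in saline and 1353 to 1889 CPM in LPS libraries. From the hemoglobin of each class, free RNA was estimated to give 36.3 to 50.8 CPM of *Ms4a6c* in LPS T-cells and 0 to 44.8 CPM in LPS NK cells, and after its subtraction *Ms4a6c* was still called in T-cells. This estimate covers free RNA alone and does not reach attached cell material. It is also rough, since in LPS endothelial cells it ran from 8.83% to 90.8% of UMIs between libraries. The part that attached microglial material or doublets had in these levels was not tested. *Ms4a6c* in LPS T-cells averaged 404 CPM, and 254 CPM after the cells with the highest doublet scores were removed. *Ms4a6c* and *Ms4a6d* were likewise higher in LPS B-cells and endothelial cells, where no LPS library overlapped the saline ones. In LPS B-cells *Ms4a6c* stood at 363 ± 152 CPM and *Ms4a6d* at 146 ± 74.7 CPM, and both ranges overlapped those of LPS T-cells. Of 5 members tested in T-cells, 2 were called higher and 1 lower (10.1% and 9% of all genes), and of 3 tested in NK cells, 1 higher and 1 lower (11.3% and 12.8%). With the replicate number as a block *Ms4a6d* passed the filter on low counts in NK cells too and was called there (2.99 ± 0.64, adjusted p = 0.0036).

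The LPS changes of the other myeloid classes were then compared with that of microglia in the same libraries. A fit across genes with the mouse as a block settled on 1 spread for all genes in macrophages, neutrophils, and dendritic cells, and came near to it in monocytes, so its SEs, p-values, and calls are not given. Instead, the difference of log2(CPM + 1) between a class and the microglia of the same library was compared between LPS and saline libraries by an exact permutation test (two-sided, unadjusted), for the members that passed the filter on low counts in the class itself. With 4 against 4 libraries the smallest p that it can give is 0.0286, which is reached where the groups of libraries do not overlap. When labels were exchanged only within a replicate number, which is the batch, there were 36 assignments and the smallest p was 0.0556, so no pair can pass the threshold within batches.

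Set out in this way, the order of the classes turned for *Ms4a6c*. *Ms4a6c* was 3.38 log2 units higher in macrophages than in microglia of the same saline libraries, and 0.51 lower in LPS libraries, and for monocytes the difference went from 4.05 above to 0.73 below. *Ms4a6b* in macrophages went from 2.14 above microglia to -0.10, and *Ms4a6d* from 1.08 to -0.33. The exact permutation test gave p = 0.0286 for *Ms4a6b, Ms4a6c*, and *Ms4a6d* in both macrophages and monocytes, for *Ms4a4a* and *Ms4a7* in macrophages, for *Ms4a4c* in monocytes, and for *Ms4a6b* and *Ms4a6c* in neutrophils.

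Of 17 pairs of member and class, 11 thus reached the smallest p, 5 of 6 in macrophages, 4 of 7 in monocytes, and 2 of 4 in neutrophils, and in these 11 the change in the class was below that in microglia and the p within batches was 0.0556. *Ms4a4b* in macrophages, which did not pass the filter (32 UMIs in saline, 18 in LPS), differed the other way, by 1.80 (exact permutation p = 0.0286). Over all genes that passed the filter in the class, 36.9% reached the smallest p in either direction in macrophages, 36.4% in monocytes, and 35.1% in neutrophils. Those below microglia numbered 1490 of 7790 in macrophages, 992 of 10127 in monocytes, and 617 of 5115 in neutrophils. The median difference was 0.00 in macrophages, 0.38 in monocytes, and 0.29 in neutrophils. The differences of *Ms4a6c* were -3.88 in macrophages, -4.78 in monocytes, and -2.63 in neutrophils.

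Other members did not reach the threshold. *Ms4a4c* in macrophages had an exact permutation p = 0.0857, *Ms4a4a* and *Ms4a4b* in monocytes had p = 0.143 and p = 0.229, and *Ms4a6d* in neutrophils had p = 0.714. In dendritic cells, with 4 against 3 libraries, the smallest value is 0.0571. *Ms4a6c* there went from 2.36 above microglia in saline to 2.53 below in LPS, in gated cells whose markers differed between the treatments.

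**Figure D4:**
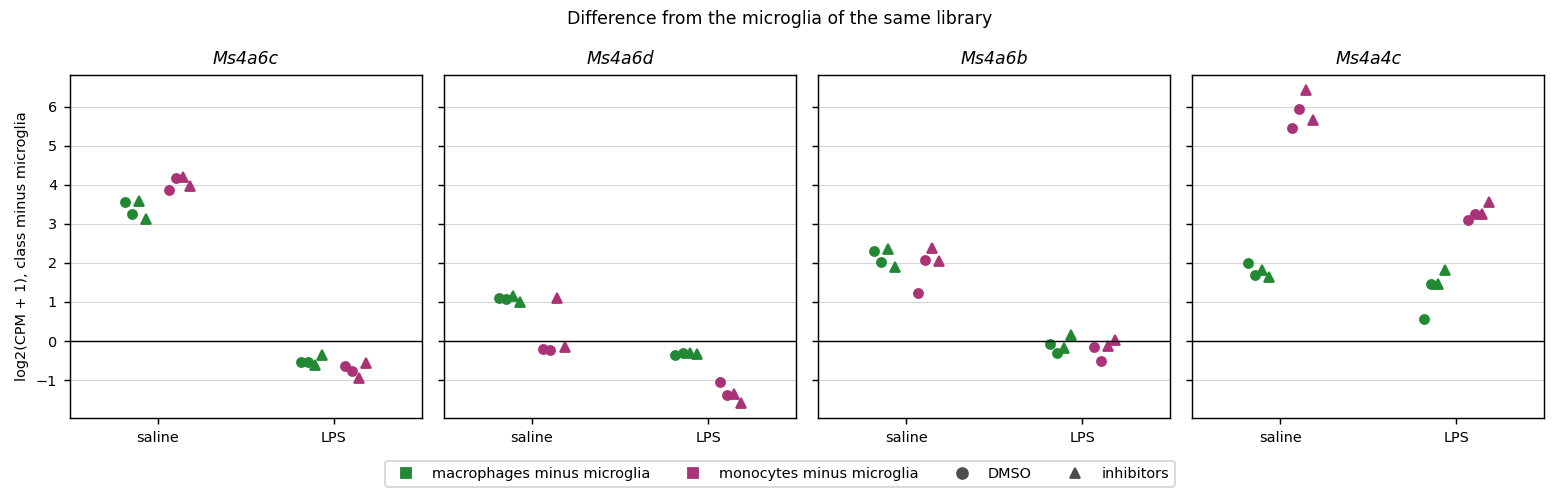
Difference of log2(CPM + 1) between macrophages (green) or monocytes (purple) and the microglia of the same library, for 4 members, with saline and LPS libraries on the horizontal axis and 1 point per library (DMSO circles, inhibitors triangles). *Ms4a6c* in macrophages lies at a mean of 3.38 in saline and -0.51 in LPS, and in monocytes at 4.05 and -0.73.

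The presence of inhibitors during dissociation did not give a called difference for any member. None of 39 pairs of member and class was called between DMSO and inhibitor libraries by edgeR, 6 had an unadjusted p under 0.05, and the lowest adjusted p was 0.089, for *Ms4a6c* in NK cells (log2 fold change -1.39 ± 0.34). DESeq2 called 1 pair. Over all genes the share called was 0.363% in microglia, 0.641% in macrophages, 0.0745% in monocytes, 0.397% in neutrophils, 0.709% in dendritic cells, 0.18% in T-cells, and 0.344% in NK cells. For the LPS change differing between DMSO and inhibitor libraries, 0 of 41 pairs were called by edgeR, 1 had an unadjusted p under 0.05, and the lowest adjusted p was 0.84. Over all genes the share called was 0.0182% in microglia, 0.0114% in macrophages, 0.243% in dendritic cells, 0.0198% in T-cells, and 0% in monocytes, neutrophils, and NK cells.

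Other genes of the family and known partners of its proteins were read from fixed lists. Of 15 other MS4A family genes in the files, 10 were tested in microglia, of which 2 were called higher and 4 lower (median log2 fold change -0.43), where 30.3% of all genes were called higher and 35.2% lower. With library totals the count was 1 higher and 6 lower, since *Ms4a13* (-1.39) and *Ms4a4d* (-1.01) were then called lower, where 14.1% and 67.5% of all genes were called. *Ms4a8a* rose by 5.23 ± 0.29 in microglia and by 3.82 ± 0.29 in macrophages, where it went from 3.92 to 7.67 CPM to 45.2 to 84.4 CPM. The part of RNA from other classes in these rises was not tested. *Ms4a20* was called higher in microglia with TMM (0.56 ± 0.20) and was -0.21 with library totals. *Ms4a1*, the B-cell gene, fell by 3.30 (SE 0.47) in microglia, where the 4 B-cell check markers also summed to 455 to 641 CPM in saline and 47.7 to 55.1 CPM in LPS. *Ms4a14* fell by 1.10, and the related *Tmem176a* and *Tmem176b* fell by 0.66 and 0.67. In macrophages, 4 were tested and 1 was called higher and 3 lower (24% and 24.3% of all genes), among them *Ms4a14* at -2.46 ± 0.44. In monocytes, where 18.9% of all genes were called higher and 18.5% lower, 3 were tested, of which *Ms4a8a* rose by 0.55 ± 0.17 (0.40, adjusted p = 0.087, with library totals) and *Tmem176a* and *Tmem176b* were called lower, the latter at -2.03.

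*Trem2*, which encodes the microglial receptor named above, was among the partners that fell. It was at 2507 to 3093 CPM in saline and 237 to 314 CPM in LPS microglia, a fall of 2.56 (SE 0.18), and it was called lower in all 7 classes tested, by 2.97 in macrophages, 3.06 in monocytes, 2.95 in neutrophils, 2.61 in dendritic cells, 2.34 in T-cells, and 2.08 in NK cells. The microglia gate markers were lower in the same classes, for example with sums of 2019 to 2776 CPM in saline and 436 to 652 CPM in LPS monocytes, and overlapped in T-cells alone. How much of *Trem2* in the other classes came from microglial RNA was not tested. *Fcer1g*, an adaptor of Fc receptors, rose by 1.67 ± 0.19, 0.85, and 0.47 in microglia, macrophages, and monocytes. Of 8 partners tested in microglia, 1 was called higher and 3 lower (median -0.27), the others being *Adam10* at -0.53 ± 0.10 and *Tnfrsf18* at -1.38 ± 0.48, and the share called lower was close to the 35.2% of all genes. With library totals 1 was higher and 7 lower, *Adam17* (-0.75), *Syk* (-0.77), *Fcer1a* (-1.35), and *Tyrobp* (-0.43) among them. Over all genes 14.1% were then called higher and 67.5% lower. In macrophages and in monocytes, 1 of 6 was called higher and 3 of 6 lower (against 24% and 24.3% of all genes in macrophages, and 18.9% and 18.5% in monocytes), which in macrophages included *Tyrobp* (-0.77 ± 0.19) and *Syk* (-0.51 ± 0.15) and in monocytes *Adam17* (-0.46 ± 0.16) and *Syk* (-0.82 ± 0.17). In microglia *Tyrobp* was 0.32 and not called (adjusted p = 0.14), but with the replicate number as a block it was 0.34 and called (adjusted p = 0.012), opposite in sign to the value with library totals. In monocytes *Tyrobp* was -0.54 and not called (adjusted p = 0.057), and was called with the block (-0.53, adjusted p = 0.027) and with library totals (-0.70), while *Fcer1g* was not called with library totals (0.32, adjusted p = 0.089).

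The genes whose level was most like that of each member over 18 pairs of class and treatment were named by Pearson's r of the mean log2(CPM + 1), as a description with no test, since the points share libraries. For *Ms4a6d* these were *Msr1* (r = 0.91), *Lacc1*, and *Igsf6*, and for *Ms4a6c*, *Clec4a1* (r = 0.90), *Ifi204*, and *Msr1*. *Ms4a4a* was closest to *Ccl2, Siglec1*, and *Tfec*, *Ms4a6b* to *Fyb, Lpxn*, and *Gpr65*, and *Ms4a4c* to *Arl5c, Agrp*, and *C9orf72*. *Ms4a7* was closest to *Apoe* (r = 0.92), *Mrc1*, and *Pf4*, of which *Mrc1* and *Pf4* belong to the macrophage gate. *Ms4a4b* was closest to *Nkg7* (r = 0.95), *Trbc1*, and *Apol7e*, and *Ms4a3* to *Cebpe* (r = 0.97), *1700067G17Rik*, and *Cd177*. Among the members themselves, *Ms4a6c* and *Ms4a6d* were most alike (r = 0.91).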

How the data were processed

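Single-cell RNA-seq (PIPseq) was available for 8 libraries of CD45+ brain cells. The deposited unit is raw UMI counts per gene and barcode: the authors matched barcodes, trimmed and aligned reads with STAR through PIPseeker (mouse GRCm39) and counted molecules. All values were whole, so nothing had been scaled, and barcodes of every depth were present. The labels name Seurat 4, whose output was not used here. Gene symbols are those of the count tables, and the RefSeq windows are of another build.

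Limits on UMIs, genes, and mitochondrial share followed the study. Each cell was gated on 10 markers per class, where a marker counted if its UMIs exceeded those expected from free RNA amounting to 10% of the cell (p under 0.05), and a class needed at least 3 markers and 2 more than the next class. After the data were seen, 3 rules were added: cells with over 5% hemoglobin UMIs were left out, cells with at least 3 of 4 azurophil granule genes were set apart, and monocytes needed at least 2 of 5 immune genes. The last rule was tried on all classes and kept for monocytes only. The members and lists were chosen with earlier results of these data known. All 8 members are named, and of the other lists the genes called in microglia, macrophages, or monocytes.

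Counts were summed per library and class (at least 10 cells) and tested with edgeR 4.0.16 (R 4.3.3), by the quasi-likelihood test after filterByExpr and TMM, with Benjamini-Hochberg adjustment over all genes tested in a class and calls at an adjusted p under 0.05. DESeq2 1.42.0 was an alternative. The interaction of class and treatment was planned with edgeR, but the prior degrees of freedom of its spread were infinite in 3 of 4 classes and 132 in monocytes (5.75 to 14.8 in the LPS fits), so an exact permutation test chosen after seeing the data is reported in its place. Cells, thinning, and figures used Python 3.11.15, scanpy 1.11.5, scipy 1.17.1, and matplotlib 3.10.9. On simulated microglial counts for LPS against saline (20175 genes), 53.4% of genes changed by 1 log2 unit were recovered and 100% of those changed by 2. For a change of 1 log2 unit, 40.3% were recovered in simulated macrophages and 44.6% in simulated NK cells. False calls numbered 7 in microglia, 5 in macrophages, and 8 in NK cells. Every simulated gene had the same spread and no batch effect, so these shares need not hold for the measured counts. The spread between libraries enters the p-values of the LPS fits, and it holds differences between mice, batches, and ex vivo treatments together. Depth was 90352359 to 141182123 UMIs per library.

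The replicate number is the batch in the labels, so it pairs libraries. Deviations of same-numbered libraries correlated at 0.086 to 0.557 in microglia and -0.0878 to 0.194 in NK cells. Scrublet's own threshold marked 0.00756% to 0.736% of cells and under 0.5% in 7 of 8 libraries. So low a share does not show that doublets were few, and the study removed some cells with microglial markers as doublets. Doublets were kept here, and the 8% of cells with the highest scores were removed as an alternative. Other alternatives changed the gate, the cells, the filter, the scaling, the covariates, and the libraries. Of these, 6, among them library totals in place of TMM and the exact permutation test, were chosen after seeing the data.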

Additional observations from a re-analysis of the deposited data

Results flagged for a closer look

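Within groups of 4 libraries, 77 combinations of member, class, and treatment with at least 20 UMIs were examined for a library far from the other three, and 5 were found, where chance gives about 1 in 20. *Ms4a6c* in saline monocytes was 922 CPM in DMSO replicate 1 and 1255 to 1293 CPM in the others, and *Ms4a6d* in saline monocytes was 238 CPM in inhibitors replicate 1 and 82.6 to 105 CPM in the others. *Ms4a4b* in LPS T-cells was 807 CPM in DMSO replicate 1 and 911 to 928 CPM in the others. *Ms4a7* was 162 CPM in saline dendritic cells of inhibitors replicate 2, against 0 to 19.6 CPM, and 67.6 CPM in saline T-cells of DMSO replicate 1, against 17.0 to 25.6 CPM.

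The LPS change differed from that in microglia of the same libraries in 11 of 17 pairs of member and class by the exact permutation test (log2, class minus microglia, unadjusted p = 0.0286 each, the smallest it can give, and 0.0556 with labels exchanged within batches only, also the smallest possible). Over all genes, in either direction, 36.9% reached this p in macrophages, 36.4% in monocytes, and 35.1% in neutrophils. Genes that did so below microglia, as all 11 pairs did, numbered 1490 of 7790 in macrophages, 992 of 10127 in monocytes, and 617 of 5115 in neutrophils. In macrophages the differences were -3.88 for *Ms4a6c*, -2.24 for *Ms4a6b*, -1.93 for *Ms4a4a*, -1.41 for *Ms4a6d*, and -0.80 for *Ms4a7*. In monocytes they were -4.78 for *Ms4a6c*, -2.58 for *Ms4a4c*, -2.13 for *Ms4a6b*, and -1.47 for *Ms4a6d*. In neutrophils they were -2.63 for *Ms4a6c* and -2.05 for *Ms4a6b*.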

How the results depend on the processing

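The directions of 5 risen members in microglia and of *Ms4a6c, Ms4a6d, Ms4a4c*, and *Ms4a7* in macrophages held in all 25 alternatives, and so did their calls, apart from the limit on fold change in macrophages. Requiring an absolute log2 fold change over 2 left 5 of 8 members called in microglia, 1 of 5 in macrophages, 1 of 4 in monocytes, 1 of 2 in NK cells, and 0 of 1 in dendritic cells. The shares of all genes called at this limit are not given, so these counts stand without a background. The same holds for the counts below, except where a share is printed. The DMSO libraries alone (2 against 2) gave 2 calls in monocytes and 0 in NK cells and in dendritic cells. Dendritic cells also had 0 calls with at least 1500 UMIs per cell, with free RNA subtracted, and with the stricter gate. Without the filter on low counts NK cells had 4 calls. Neutrophils had 5 calls with the replicate block and 5 with the ex vivo covariate, against 3. Under the block 17.3% of all genes in neutrophils were called higher and 16.7% lower. The replicate block, which pairs the libraries by batch, moved no other count of members by over 1.5 times and changed no other call of a member beyond *Ms4a6d* in NK cells, tested under the block alone. Among the listed partners and relatives it added *Tyrobp* in microglia and in monocytes and, tested under the block alone, *Ms4a1* in monocytes and *Syk* in NK cells. DESeq2 called 1 pair between DMSO and inhibitors, against 0. Leaving out 1 library at a time gave 0 to 2 calls between DMSO and inhibitors and 0 to 1 in dendritic cells. Of the members called, 1 turned in direction: *Ms4a7* in monocytes was 0.52 with the gate that makes no allowance for free RNA. Of the relatives and partners called, *Ms4a20* in microglia was -0.21 with library totals. Values of members that were not called changed sign as well, such as *Ms4a6b* in macrophages (-0.25 to 0.18), in monocytes (-0.32 to 0.34), and in neutrophils (-0.32 to 0.45). The causes were not tested. The gate without free RNA allowance gave no value for dendritic cells, and the LPS change by inhibitors could not be fitted there without LPS DMSO replicate 1. Few members could be tested in dendritic cells and NK cells, the tested classes with the fewest cells (191 and 410).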
